A study of Homo sapiens with 18 samples.

Results

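Chromosome duplication needs a fixed order of protein machines, and 48 human genes that encode those machines are described here across 6 groups of HEK293A cells. The 48 genes were listed by name for their part in origin licensing, helicase loading, DNA synthesis, the sliding clamp, nucleotide supply and the G1/S cyclin E step, and all 48 were found among the 58336 genes of the deposited count table. HEK293A grows attached to the dish and descends from embryonic kidney tissue. The groups were LATS1/2-DKO cells, in which both LATS1 and LATS2 are labelled as knocked out, and wild-type HEK293A cells. Each was kept for 4 h with 250 uM ZnCl2, with 50 uM CdCl2 or with water as vehicle, with 3 libraries a group and 18 in all. The design asks which metal-responsive transcripts depend on LATS1 and LATS2, the kinases of the Hippo pathway that restrain the coactivators YAP and TAZ. Whether the DKO line is 1 clone is not given in the sources used here, so the effect of the genotype and of the line itself cannot be told apart. The replicates are called biological, but nothing states that cultures or days were separate. The p-values therefore reflect only how much these libraries vary, which may in part be technical.

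Before a cell divides, the origin recognition complex (ORC) marks replication origins on DNA, and CDC6 and CDT1 load the MCM2-7 ring there as an inactive helicase, a step called licensing that geminin (GMNN) blocks outside G1. In S phase CDC45 and the GINS complex activate the ring, and polymerase alpha with primase starts each strand. Polymerases epsilon and delta extend it on the PCNA clamp loaded by the RFC complex, while RPA coats single-stranded DNA, and FEN1 and LIG1 finish the lagging strand. Many of these genes are transcribed in a cell-cycle wave from late G1, driven by E2F factors and restrained by RB proteins. In RNA from a whole culture, fewer cells in a cycle phase and less RNA per cell cannot be told apart.

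The libraries held 25478614 to 37148046 counts, and the 48 genes together took 0.634 to 0.739% of them. LATS1 was lower in every library labelled DKO than in every library labelled wild type under the same treatment. In water it had 46.1, 44.0 and 45.6 CPM (a gene's share of the library after edgeR's TMM scaling) in DKO cells and 78.2, 81.9 and 77.2 CPM in wild-type cells. LATS2 had 18.2, 18.9 and 18.7 CPM in DKO cells and 16.4, 16.5 and 16.2 CPM in wild-type cells in water. Under the metals the order was the other way: LATS2 had 38.1, 36.0 and 40.3 CPM in DKO cells and 50.1, 44.3 and 49.0 CPM in wild-type cells under zinc, and 25.7, 23.8 and 25.5 CPM in DKO cells and 41.9, 39.0 and 44.7 CPM in wild-type cells under cadmium. A transcript count does not show whether a protein is lost. Of the 15 fibroblast, keratinocyte, blood and endothelial marker genes, 6 had enough counts to be tested, and of these 5 were higher and 0 lower in DKO cells than in wild-type cells in water. The most abundant, COL1A1, had 31.8 ± 3.10 CPM in DKO cells and 7.19 ± 1.07 CPM in wild-type cells. The next in DKO cells, VWF, had 2.26 ± 0.145 CPM in DKO cells and 1.29 ± 0.441 CPM in wild-type cells. Of the 8 HEK293-associated marker genes tested, 6 were higher and 2 lower in DKO cells than in wild-type cells in water. Of all tested genes, 30.8% were higher and 32.1% lower in that comparison. KRT8, a keratin of simple epithelia, stood at 1640.3 ± 12.3 CPM in DKO cells and 292 ± 13.5 CPM in wild-type cells (SD, n = 3 each). The blood gene HBB had no counts in any library. PAX2, a kidney gene, stayed near 0, at 0.131 ± 0.0491 CPM in DKO cells and 0.155 ± 0.0913 CPM in wild-type cells. The part of these marker differences between the lines in the results below was not tested. Zinc replicate 3 of wild type stood apart from the other 2 of its group. The chi-square per degree of freedom between libraries was 4.96 and 5.04 for replicate 3 against replicates 1 and 2, and 1.88 between those 2. For comparisons that use zinc in wild type, the counts of genes passing and the FEN1 log2 changes under zinc are also given without it. The zinc values of the other genes in wild type include it.

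Promoters of 6 of the genes are shown because the results below turn on these genes. ORC6, CDC6 and CDT1 rose under both metals, FEN1 and POLE2 fell under zinc in wild-type cells, and POLA1 was the gene with the largest excess in DKO cells over wild-type cells in water. Each sequence runs 5′ to 3′ on the gene's own strand from 250 bases before the RefSeq transcription start to 50 bases after it (RefSeq, GRCh38.p14), and capitals mark an E2F motif, one of TTTCCCGC, TTTGGCGC, TTTCGCGC and TTTGCCGC on either strand.
ORC6 (chr16:46689409-46689708, plus strand): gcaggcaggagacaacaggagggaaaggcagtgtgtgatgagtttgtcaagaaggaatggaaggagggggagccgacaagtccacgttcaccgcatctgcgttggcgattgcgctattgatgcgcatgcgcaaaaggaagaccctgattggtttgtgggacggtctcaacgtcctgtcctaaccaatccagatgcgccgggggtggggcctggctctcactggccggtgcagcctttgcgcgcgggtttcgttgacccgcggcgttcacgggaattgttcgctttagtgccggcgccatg
CDC6 (chr17:40287629-40287928, plus strand): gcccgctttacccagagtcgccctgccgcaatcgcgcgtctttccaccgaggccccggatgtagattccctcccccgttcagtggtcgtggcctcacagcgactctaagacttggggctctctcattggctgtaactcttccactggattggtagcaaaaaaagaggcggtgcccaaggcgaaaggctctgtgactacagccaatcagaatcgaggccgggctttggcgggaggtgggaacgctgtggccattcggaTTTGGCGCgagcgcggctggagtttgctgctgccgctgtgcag
CDT1 (chr16:88803539-88803838, plus strand): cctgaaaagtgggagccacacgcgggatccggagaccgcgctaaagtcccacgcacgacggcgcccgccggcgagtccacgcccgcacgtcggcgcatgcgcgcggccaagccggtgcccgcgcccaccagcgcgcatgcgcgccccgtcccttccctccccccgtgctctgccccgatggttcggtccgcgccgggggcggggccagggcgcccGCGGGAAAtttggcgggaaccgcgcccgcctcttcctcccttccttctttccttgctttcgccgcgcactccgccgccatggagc
FEN1 (chr11:61792661-61792960, plus strand): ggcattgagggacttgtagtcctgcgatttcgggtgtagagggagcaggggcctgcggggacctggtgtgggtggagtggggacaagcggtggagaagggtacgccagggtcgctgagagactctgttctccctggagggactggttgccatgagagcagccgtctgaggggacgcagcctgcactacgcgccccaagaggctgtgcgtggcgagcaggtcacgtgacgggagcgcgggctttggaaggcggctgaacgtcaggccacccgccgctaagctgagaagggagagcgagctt
POLE2 (chr14:49688165-49688464, minus strand): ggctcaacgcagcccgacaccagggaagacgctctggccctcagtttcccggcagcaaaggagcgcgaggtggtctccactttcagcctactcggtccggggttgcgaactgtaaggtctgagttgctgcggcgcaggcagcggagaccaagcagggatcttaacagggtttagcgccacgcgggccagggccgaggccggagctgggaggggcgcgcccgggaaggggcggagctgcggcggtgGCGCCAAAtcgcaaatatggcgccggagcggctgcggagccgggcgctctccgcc
POLA1 (chrX:24693668-24693967, plus strand): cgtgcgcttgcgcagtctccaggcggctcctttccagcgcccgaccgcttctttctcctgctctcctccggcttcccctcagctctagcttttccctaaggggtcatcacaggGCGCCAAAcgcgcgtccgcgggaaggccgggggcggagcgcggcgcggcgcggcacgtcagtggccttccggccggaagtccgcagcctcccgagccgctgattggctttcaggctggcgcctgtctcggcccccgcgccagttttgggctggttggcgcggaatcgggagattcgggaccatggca
Counting the start base as 1 with no base 0, the first base of the marked word lies at 8 in CDC6, at -35 in CDT1, at -5 in POLE2 and at -137 in POLA1. The ORC6 and FEN1 windows hold none of the 4 words. Other spellings of an E2F site were not searched, so a window may hold unmarked ones. The letters tttggcgg, which differ from TTTGGCGC in the last base, stand unmarked in the CDC6 and CDT1 windows. RefSeq promoter windows were matched for 41 of the 48 genes. Of these 41, 21 (51.22%) hold at least 1 of the 4 words, against 3.97% of the 27167 genes with a window and 6.31% of the 12037 of them that were tested here. The word CCAAT, the core of the NF-Y site, stands in 25 of the 41 (60.98%), against 42.59% of the tested genes with a window. TTTGAA, a word found in cell-cycle homology regions, stands in 1 of the 41 (RRM1), against 13.97%. Both strands were searched for each word. Letters alone do not show that a factor binds.

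In water, levels per transcript length spanned a wide range. TPM (a gene's share of the library after division by its exon length) was highest for PCNA, the sliding clamp, at 896 ± 26.0 in DKO cells and 820.1 ± 6.88 in wild-type cells (SD, n = 3 each). The genes of the MCM2-7 ring, whose proteins assemble in equal numbers, were unequal in TPM. MCM7 had 498 ± 3.85 TPM in DKO cells and 509.5 ± 6.92 TPM in wild-type cells, while MCM5 had 87.8 ± 1.86 TPM in DKO cells and 101 ± 3.49 TPM in wild-type cells. MCM2, MCM3, MCM4 and MCM6 lay between these, from 243 ± 1.47 TPM for MCM6 to 399 ± 1.68 TPM for MCM3 in DKO cells. The GINS subunits, also a complex of equal parts, ran from 18.7 ± 1.26 TPM for GINS3 to 97.9 ± 3.85 TPM for GINS1 in DKO cells. In wild-type cells they ran from 20.8 ± 0.796 TPM for GINS3 to 90.0 ± 1.66 TPM for GINS1. CCNE2, 1 of the 2 cyclin E genes, was the lowest of the 48 in the deposited counts, at 15.7 ± 0.313 TPM in DKO cells and 16.3 ± 0.859 TPM in wild-type cells. TPM divides by all annotated exon bases, so a gene with long rarely used exons reads too low. The deposited counts ignore strand and leave out reads where genes overlap: CCNE2, which overlaps INTS8, kept 45.2% of the counts that the stranded column gives it, TYMS, which overlaps ENOSF1, kept 49.5%, and GINS4 kept 58.4%. From the stranded column CCNE2 had 33.3 ± 2.35 TPM in DKO cells and 35.3 ± 0.751 TPM in wild-type cells, above GINS3, ORC4 and PRIM2, so its place as the lowest depended on the counting. TYMS had 520.4 ± 8.13 TPM in DKO cells and 381 ± 15.5 TPM in wild-type cells there, and PCNA was still the highest.

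**Figure D1:**
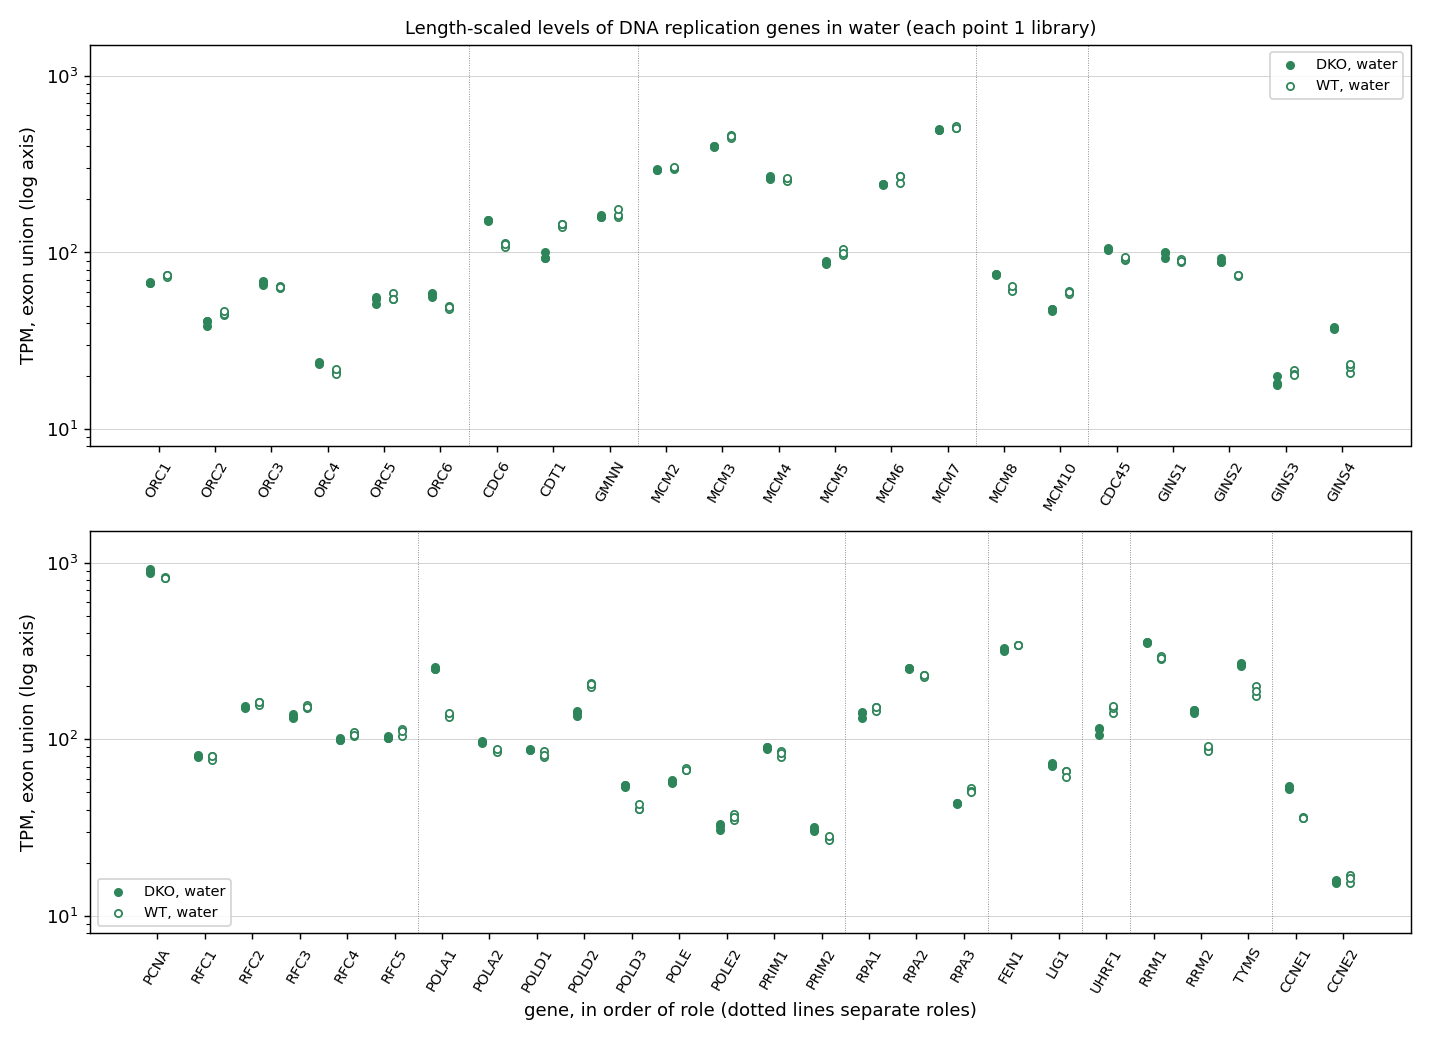
TPM on a log axis for each of the 48 genes in water, with 1 point per library, filled for DKO cells and open for wild-type cells, and dotted lines between roles. PCNA, MCM7 and MCM3 sit at the top and CCNE2, GINS3 and ORC4 near the bottom in both genotypes.

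The 4 h of metal moved many of the 48 genes by small amounts. With edgeR's quasi-likelihood test and Benjamini-Hochberg adjustment over the 19393 genes tested (threshold 0.05), zinc in DKO cells raised 12 of the 48 and lowered 19. Of all tested genes 55.9% passed in that comparison, 28.2% higher and 27.7% lower. Of the 48, 10 rose and 32 fell when libraries were scaled by library size alone. Zinc in wild-type cells raised 10 and lowered 26, with 61.3% of all genes passing, 29.4% higher and 32% lower. Without wild-type zinc replicate 3 the counts were 11 and 27. Cadmium in DKO cells raised 13 and lowered 16, with 47% of all genes passing, 23.2% higher and 23.8% lower, against 7 and 31 of the 48 with library size alone. Cadmium in wild-type cells raised 15 and lowered 21, with 61.7% of all genes passing, 30% higher and 31.7% lower, against 12 and 33 of the 48 with library size alone. No gene of the 48 reached a 2-fold change in any of the 11 comparisons made. The median absolute log2 fold change of the 48 was 0.12 under either metal in DKO cells, against 0.28 under zinc and 0.22 under cadmium for all tested genes. In wild-type cells it was 0.20 under zinc and 0.23 under cadmium, against 0.35 and 0.34 for all. The signed median was -0.036 under zinc and -0.019 under cadmium in DKO cells and -0.12 and -0.068 in wild-type cells, against 0.0011, -0.0025, -0.011 and -0.014 for all genes in the same order. Library size alone moved the median of all genes to -0.089 under zinc and -0.12 under cadmium in DKO cells and to -0.075 and -0.13 in wild-type cells, so the sign of changes of that size depended on the scaling.

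**Figure D2:**
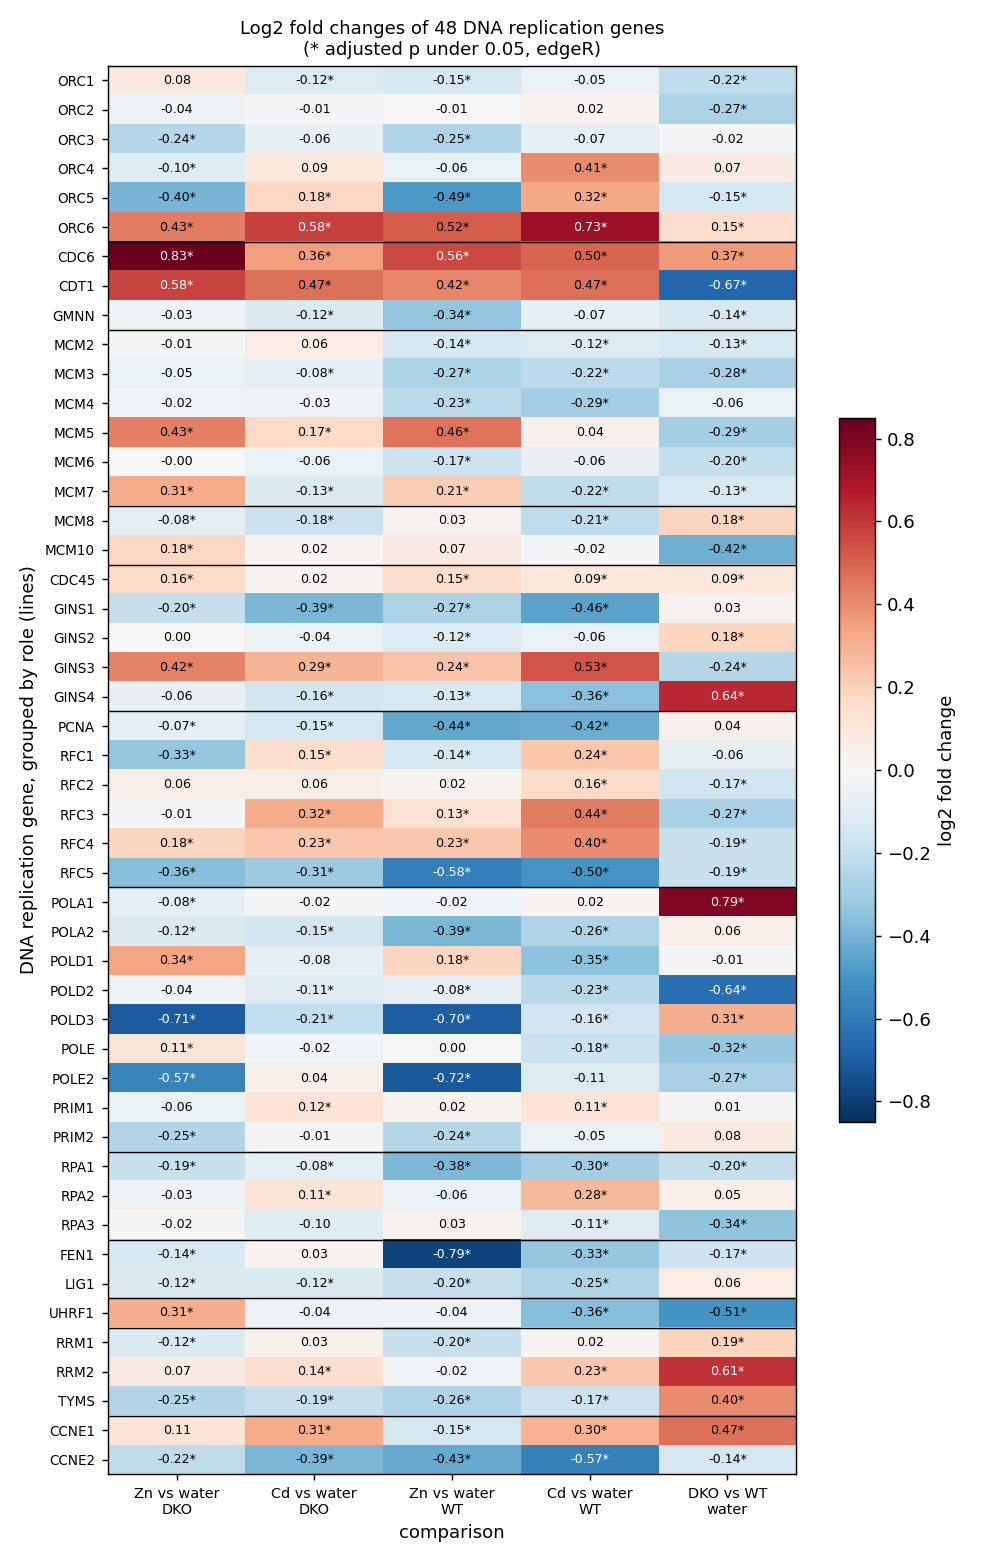
Log2 fold change of each of the 48 genes (rows, grouped by role) in 5 comparisons (columns), red for higher and blue for lower, with an asterisk for an adjusted p under 0.05. ORC6, CDC6, CDT1 and GINS3 are higher under both metals in both genotypes, while FEN1, POLE2, POLD3 and RFC5 carry the largest falls under zinc in wild-type cells.

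Of the 3 licensing genes, CDC6 and CDT1 rose in all 4 metal comparisons and GMNN rose in none. The zinc and cadmium comparisons of a genotype share its water libraries, so the 4 are not independent. Of the 6 ORC genes, 1 rose and 3 fell under zinc in DKO cells, and the counts in wild-type cells were the same. Under cadmium 2 rose and 1 fell in DKO cells, and 3 rose and 0 fell in wild-type cells. Of all tested genes, 28.2% rose and 27.7% fell under zinc and 23.2% and 23.8% under cadmium in DKO cells. In wild-type cells the shares were 29.4% and 32% under zinc and 30% and 31.7% under cadmium. CDC6, the ATPase that brings CDT1 and the MCM ring to ORC, had 374, 372 and 368 CPM in DKO cells under zinc, 270.4, 259.8 and 272 CPM under cadmium and 212, 208 and 206 CPM in water. In wild-type cells it had 241, 248 and 228 CPM under zinc, 227, 229 and 230.5 CPM under cadmium and 166, 156 and 164 CPM in water. In each genotype every metal library lay above every water library. The log2 fold changes ± standard error (approximate, from the test statistic) were 0.83 ± 0.030 under zinc and 0.36 ± 0.030 under cadmium in DKO cells. The wild-type values were 0.56 ± 0.031 under zinc and 0.50 ± 0.031 under cadmium, all 4 with an edgeR adjusted p of at most 8.21e-13.

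CDT1, the MCM loader whose protein is destroyed in S phase, had 119.5, 119 and 115 CPM in DKO cells under zinc, 113, 110.3 and 104 CPM under cadmium and 77.9, 77.2 and 81.4 CPM in water. The wild-type libraries had 167, 163 and 171 CPM under zinc, 180.5, 167 and 172 CPM under cadmium and 123, 126 and 127 CPM in water. Every metal library again lay above the water libraries of its genotype, and the DKO values under metal stayed below the wild-type values in water. The log2 fold changes were 0.58 ± 0.036 under zinc and 0.47 ± 0.036 under cadmium in DKO cells, and 0.42 ± 0.034 and 0.47 ± 0.034 in wild-type cells (edgeR adjusted p at most 1.94e-13). GMNN, the inhibitor of CDT1, had 98.1, 94.4 and 95.5 CPM under zinc and 102, 98.0 and 95.7 CPM in water in DKO cells, ranges that overlap. Its log2 change of -0.034 ± 0.037 did not pass (edgeR adjusted p = 0.456). In wild-type cells GMNN fell under zinc, to 82.7, 89.2 and 85.7 CPM, against 105, 106 and 114 CPM in water, a log2 change of -0.34 ± 0.038 (edgeR adjusted p = 6.04e-10). Under cadmium its log2 change was -0.12 in DKO cells, which did not pass without DKO water replicate 1 or DKO cadmium replicate 1 (adjusted p = 0.0519 to 0.0581), and -0.072 in wild-type cells, which did not pass.

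ORC6, the smallest ORC subunit, rose under both metals in both genotypes, which none of the other 5 ORC genes did. It had 83.7, 85.4 and 80.6 CPM in DKO cells under zinc, 93.6, 87.6 and 94.8 CPM under cadmium and 60.7, 62.9 and 61.1 CPM in water. The wild-type values were 77.5, 80.4 and 80.4 CPM under zinc, 91.5, 89.8 and 94.9 CPM under cadmium and 56.7, 54.1 and 55.8 CPM in water. No metal library overlapped the water libraries of its genotype. The log2 fold changes of ORC6 were 0.43 ± 0.037 under zinc and 0.58 ± 0.037 under cadmium in DKO cells and 0.52 ± 0.038 and 0.73 ± 0.038 in wild-type cells (edgeR adjusted p at most 8.15e-13).

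ORC5, a nucleotide-binding ORC subunit, went one way under zinc and the other under cadmium. In DKO cells it had 56.4, 54.9 and 56.2 CPM under cadmium, 37.4, 37.2 and 38.1 CPM under zinc and 50.8, 51.9 and 46.1 CPM in water. In wild-type cells it had 66.3, 72.1 and 67.1 CPM under cadmium, 37.5, 39.0 and 41.0 CPM under zinc and 57.8, 53.7 and 53.4 CPM in water. Water libraries lay between the zinc and cadmium libraries in both genotypes, without overlap. Cadmium against zinc gave log2 0.57 ± 0.047 in DKO cells and 0.81 ± 0.046 in wild-type cells (edgeR adjusted p = 4.37e-13 and 9.75e-18). Against water, the rise under cadmium in DKO cells (0.18 ± 0.045, edgeR adjusted p = 0.00146) did not pass with library size alone (0.062, adjusted p = 0.258). ORC4, which also binds ATP, had 54.3, 56.0 and 56.4 CPM under cadmium and 53.0, 51.4 and 52.3 CPM in water in DKO cells (log2 0.088 ± 0.037, edgeR adjusted p = 0.051). ORC4 rose under cadmium in wild-type cells, to 66.0, 66.2 and 65.5 CPM against 49.6, 48.3 and 51.3 CPM in water (log2 0.41 ± 0.037, edgeR adjusted p = 3.87e-12). ORC3 fell under zinc in both genotypes (-0.24 in DKO cells and -0.25 in wild-type cells), and ORC2 passed under neither metal in either genotype, with log2 values from -0.038 to 0.018. ORC1, the subunit closest to CDC6 in sequence, fell by 9.93% under zinc in wild-type cells (edgeR adjusted p = 0.0011).

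The MCM2-7 genes divided under zinc. MCM5 and MCM7 rose while MCM2, MCM3, MCM4 and MCM6 fell in wild-type cells. MCM5 had 214, 219.9 and 209 CPM in DKO cells under zinc, against 157, 162 and 158 CPM in water (log2 0.43 ± 0.037). It had 278, 278 and 247 CPM in wild-type cells under zinc, against 189, 201 and 193 CPM in water (log2 0.46 ± 0.036, edgeR adjusted p at most 8.33e-13). MCM5 had the lowest TPM of the ring genes in water and the largest rise under zinc, in both genotypes. MCM7 rose under zinc, by 0.31 in DKO cells and 0.21 in wild-type cells on the log2 scale, and fell under cadmium, with -0.13 and -0.22. Cadmium against zinc gave MCM7 log2 -0.44 ± 0.025 in DKO cells and -0.43 ± 0.025 in wild-type cells (edgeR adjusted p = 2.31e-17 and 2.64e-17). Under zinc in wild-type cells the other 4 ring genes had log2 changes from -0.27 for MCM3 to -0.14 for MCM2, and in DKO cells their changes, from -0.054 to -0.0043, did not pass. MCM4 had 446, 448 and 446 CPM under cadmium in DKO cells, against 457, 454 and 461 CPM in water, and 382, 397 and 388 CPM under cadmium in wild-type cells, against 473, 467 and 484 CPM in water. It did not pass in DKO cells (log2 -0.032 ± 0.025, edgeR adjusted p = 0.317) and fell without overlap in wild-type cells (log2 -0.29 ± 0.025, adjusted p = 1.33e-12). MCM8, a relative that works in homologous recombination, fell under cadmium in both genotypes (-0.18 in DKO cells and -0.21 in wild-type cells). MCM10, which helps activate the ring, rose under zinc in DKO cells (0.18 ± 0.038, edgeR adjusted p = 0.000129).

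The 4 GINS genes, whose proteins bind the MCM ring as 1 unit, went in different directions. GINS1 fell in all 4 metal comparisons, with 73.0, 76.7 and 75.8 CPM under cadmium against 95.4, 102 and 97.9 CPM in water in DKO cells (log2 -0.39 ± 0.036, edgeR adjusted p = 1.22e-11). It had 69.7, 67.9 and 73.2 CPM against 98.8, 94.5 and 96.2 CPM in wild-type cells (log2 -0.46 ± 0.037, edgeR adjusted p = 1.01e-13). Under zinc its log2 changes were -0.20 in DKO cells and -0.27 in wild-type cells. GINS3 rose in all 4, with 31.9, 31.8 and 31.2 CPM under zinc, 29.8, 27.8 and 28.8 CPM under cadmium and 22.6, 25.5 and 22.7 CPM in water in DKO cells. In wild-type cells GINS3 had 35.0, 33.3 and 31.0 CPM under zinc, 39.8, 39.6 and 41.8 CPM under cadmium and 29.3, 27.4 and 27.2 CPM in water. Its log2 changes were 0.42 ± 0.053 under zinc and 0.29 ± 0.054 under cadmium in DKO cells and 0.24 ± 0.052 and 0.53 ± 0.051 in wild-type cells (edgeR adjusted p at most 0.000108). Metal and water libraries did not overlap in either genotype for GINS1 or GINS3. GINS4 fell by 10.3% in DKO cells and fell by 21.9% in wild-type cells under cadmium. Of the 4 changes of GINS2, the one under zinc in wild-type cells (-0.12) passed, though not with a filter of 5 CPM (-0.074, adjusted p = 0.0672). CDC45, which links the ring to GINS, rose under zinc by 0.16 in DKO cells and 0.15 in wild-type cells on the log2 scale. With library size alone the DKO rise did not pass (0.068, adjusted p = 0.0925).

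The largest fall of the 48 under zinc in wild-type cells was that of FEN1. FEN1, the nuclease that removes the primer flap of each Okazaki fragment, had 179, 177 and 183 CPM under zinc, 206, 198 and 201 CPM under cadmium and 197, 201 and 196 CPM in water in DKO cells. In wild-type cells FEN1 had 133, 131 and 123 CPM under zinc, 182, 172 and 179 CPM under cadmium and 223, 224 and 222 CPM in water. In DKO cells the zinc libraries lay below the water libraries and the cadmium libraries overlapped them, whereas the 3 wild-type groups were fully separate. In DKO cells FEN1 fell by 9.01% under zinc (log2 -0.14 ± 0.030, edgeR adjusted p = 0.000214) and did not pass under cadmium (log2 0.028 ± 0.030, adjusted p = 0.488). In wild-type cells FEN1 fell by 42.2% under zinc (log2 -0.79 ± 0.031, adjusted p = 3.69e-23) and fell by 20.3% under cadmium (log2 -0.33 ± 0.030, adjusted p = 5.09e-12). Without wild-type zinc replicate 3, the FEN1 change under zinc in wild-type cells was -0.76. LIG1, the ligase that seals the fragments, fell in all 4 comparisons, with log2 values of -0.12 under zinc and -0.12 under cadmium in DKO cells and -0.20 and -0.25 in wild-type cells.

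PCNA, the clamp, had 314, 308 and 309 CPM under zinc, 296, 289.8 and 296 CPM under cadmium and 341, 319 and 318 CPM in water in DKO cells. Wild-type cells had 232, 247 and 226 CPM under zinc, 235, 241 and 238 CPM under cadmium and 322, 316 and 316 CPM in water. All metal libraries lay below the water libraries of their genotype, by a narrow gap in DKO cells and a wide one in wild-type cells. PCNA fell under cadmium in DKO cells (log2 -0.15 ± 0.030, edgeR adjusted p = 9.43e-05), and in wild-type cells its log2 changes were -0.44 ± 0.031 under zinc and -0.42 ± 0.030 under cadmium (adjusted p = 1.86e-15 and 6.15e-15). Under zinc in DKO cells the log2 change was -0.069 ± 0.030 (edgeR adjusted p = 0.0482). It did not pass without DKO water replicate 1 (-0.039, adjusted p = 0.324) or without DKO zinc replicate 1, 2 or 3 (adjusted p = 0.0551, 0.171 and 0.106).

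The 5 RFC genes, whose proteins form the clamp loader, also went different ways. RFC5, a small subunit, fell in all 4 comparisons, with 64.4, 62.1 and 65.5 CPM under zinc, 67.1, 65.5 and 66.7 CPM under cadmium and 83.3, 81.4 and 82.1 CPM in water in DKO cells. Wild-type cells had 60.4, 65.2 and 62.2 CPM under zinc, 65.5, 66.4 and 67.1 CPM under cadmium and 97.8, 89.0 and 94.8 CPM in water. Metal and water libraries were separate in both genotypes. The log2 changes were -0.36 ± 0.037 and -0.31 ± 0.038 in DKO cells and -0.58 ± 0.038 and -0.50 ± 0.037 in wild-type cells for zinc and cadmium (edgeR adjusted p at most 8.42e-09). RFC4, another small subunit, rose in all 4, from 0.18 under zinc in DKO cells to 0.40 under cadmium in wild-type cells. RFC3 rose under cadmium, to 121, 119 and 118 CPM against 99.9, 94.6 and 93.5 CPM in water in DKO cells (log2 0.32 ± 0.033, edgeR adjusted p = 1.36e-10), and by 0.44 on the log2 scale in wild-type cells. RFC1, the large subunit, was lower under zinc (-0.33 in DKO cells and -0.14 in wild-type cells) and higher under cadmium (0.15 and 0.24). Cadmium against zinc gave RFC1 log2 0.48 ± 0.032 in DKO cells and 0.37 ± 0.032 in wild-type cells (edgeR adjusted p = 2.26e-15 and 6.87e-13). The rise of RFC1 over water under cadmium in DKO cells did not pass with library size alone (0.033, adjusted p = 0.383). RFC2 rose under cadmium in wild-type cells (0.16 ± 0.035, edgeR adjusted p = 0.000107), though not with library size alone (0.042, adjusted p = 0.293), and its other 3 changes did not pass.

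Among the polymerases, 2 accessory subunits fell mainly under zinc. POLD3, a regulatory subunit of polymerase delta, had 44.0, 44.9 and 47.2 CPM under zinc, 64.4, 63.0 and 64.8 CPM under cadmium and 73.7, 75.4 and 73.5 CPM in water in DKO cells. In wild-type cells POLD3 had 37.3, 37.7 and 35.7 CPM under zinc, 55.3, 54.0 and 51.2 CPM under cadmium and 59.1, 58.5 and 62.2 CPM in water. The 3 treatments did not overlap within a genotype. Zinc gave log2 -0.71 ± 0.040 in DKO cells and -0.70 ± 0.042 in wild-type cells (edgeR adjusted p = 3.05e-18 and 1.62e-17). Cadmium gave -0.21 ± 0.038 in DKO cells and -0.16 ± 0.040 in wild-type cells. POLE2, the second subunit of polymerase epsilon, had 15.9, 15.5 and 15.9 CPM under zinc, 22.9, 24.3 and 25.2 CPM under cadmium and 24.4, 23.8 and 22.0 CPM in water in DKO cells. In wild-type cells POLE2 had 17.0, 17.1 and 17.5 CPM under zinc, 26.2, 25.8 and 26.3 CPM under cadmium and 27.2, 29.3 and 28.2 CPM in water. Zinc libraries lay far below both others, with log2 -0.57 ± 0.055 in DKO cells and -0.72 ± 0.054 in wild-type cells (edgeR adjusted p = 2.56e-11 and 1.99e-14). Cadmium did not pass in either (0.043 ± 0.053 in DKO cells and -0.11 ± 0.051 in wild-type cells, edgeR adjusted p = 0.541 and 0.051). The catalytic subunits differed from these: POLD1 rose under zinc (0.34 in DKO cells and 0.18 in wild-type cells) and fell under cadmium in wild-type cells (-0.35). POLE fell under cadmium in wild-type cells (-0.18) and rose under zinc in DKO cells, to a mean of 255 CPM against 237 CPM in water. That rise did not pass without DKO water replicate 3 or DKO zinc replicate 2 (edgeR adjusted p = 0.0501 to 0.0598). POLA1 had log2 values from -0.084 to 0.018 over the 4 comparisons, and the fall of -0.084 under zinc in DKO cells passed. POLD1 had 106, 101 and 94.3 CPM under cadmium against 109, 107 and 104 CPM in water in DKO cells, and 85.9, 84.4 and 81.5 CPM against 104, 112 and 106 CPM in wild-type cells. The groups overlapped in DKO cells and were separate in wild-type cells. POLA2, the partner of POLA1, had 122, 124 and 129.7 CPM under zinc in DKO cells, against 137, 136 and 136 CPM in water, and 99.5, 98.5 and 102 CPM under zinc in wild-type cells, against 133, 128 and 133 CPM in water. POLA2 fell in all 4 comparisons, most under zinc in wild-type cells (-0.39 ± 0.031, edgeR adjusted p = 1.07e-13). PRIM2, the large primase subunit, fell under zinc in both genotypes (-0.25 in DKO cells and -0.24 in wild-type cells). PRIM1, the catalytic primase subunit, had log2 values of 0.12 in DKO cells and 0.11 in wild-type cells under cadmium, which passed, but with library size alone the values were 0.0030 and -0.0056 and did not. POLD2 fell by 7.44% in DKO cells and fell by 14.9% in wild-type cells under cadmium. The DKO value did not pass without DKO water replicate 2 or DKO cadmium replicate 3 (adjusted p = 0.0652 to 0.0984).

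The 3 subunits of RPA were also unequal. RPA1, the large subunit, fell in all 4 comparisons (-0.19 under zinc and -0.082 under cadmium in DKO cells, -0.38 and -0.30 in wild-type cells). The cadmium value in DKO cells did not pass without DKO water replicate 2 or 3 or DKO cadmium replicate 1 (adjusted p = 0.0788 to 0.091). RPA3, the smallest subunit, had log2 values from -0.11 to 0.027. RPA2, the middle subunit, had 139, 132 and 136 CPM under cadmium in DKO cells, against 128, 126 and 125 CPM in water, and 147, 148 and 146 CPM under cadmium in wild-type cells, against 124, 119 and 122 CPM in water. The groups were separate in both genotypes, and RPA2 rose by log2 0.11 ± 0.032 in DKO cells and 0.28 ± 0.032 in wild-type cells (edgeR adjusted p = 0.00553 and 1.82e-09), the DKO value becoming -0.0046 with library size alone.

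Nucleotide supply and cyclin E held opposite members as well. TYMS, which makes thymidylate, had 134, 135 and 141 CPM under zinc, 144, 139 and 143 CPM under cadmium and 165, 158 and 163 CPM in water in DKO cells. In wild-type cells TYMS had 98.6, 105 and 105 CPM under zinc, 107, 109 and 111 CPM under cadmium and 131, 115 and 123 CPM in water. Metal libraries lay below water libraries throughout, with log2 changes from -0.26 to -0.17 (edgeR adjusted p at most 0.000112). RRM2, the small ribonucleotide reductase subunit, rose under cadmium by log2 0.14 ± 0.034 in DKO cells (edgeR adjusted p = 0.000623), though not with library size alone (0.031, adjusted p = 0.469). It rose by 0.23 ± 0.036 in wild-type cells (edgeR adjusted p = 6.95e-07). RRM1, the large subunit, fell by 8.29% in DKO cells and fell by 12.8% in wild-type cells under zinc. CCNE1 and CCNE2 encode cyclins E1 and E2, which activate CDK2 at the G1/S step. CCNE2 had 13.3, 13.4 and 12.5 CPM under cadmium against 17.6, 17.2 and 16.5 CPM in water in DKO cells, and 12.6, 12.7 and 12.6 CPM against 19.9, 17.7 and 18.9 CPM in wild-type cells. CCNE1 had 42.8, 42.8 and 39.5 CPM against 33.3, 33.6 and 33.8 CPM in DKO cells, and 30.4, 29.7 and 29.1 CPM against 24.2, 24.3 and 24.2 CPM in wild-type cells. Under cadmium CCNE2 fell without overlap (log2 -0.39 ± 0.065 and -0.57 ± 0.065) and CCNE1 rose without overlap (log2 0.31 ± 0.048 and 0.30 ± 0.052, edgeR adjusted p at most 6.55e-06 for all 4). UHRF1, which recruits maintenance DNA methylation to replicated DNA, had 180.5, 177 and 171 CPM under zinc, 137, 137 and 139 CPM under cadmium and 136, 145 and 145 CPM in water in DKO cells. In wild-type cells it had 199, 203 and 190.0 CPM under zinc, 156, 155 and 161 CPM under cadmium and 193, 204 and 209.9 CPM in water. UHRF1 rose under zinc in DKO cells (log2 0.31 ± 0.034) and fell under cadmium in wild-type cells (log2 -0.36 ± 0.034, edgeR adjusted p at most 3.52e-10), and the other 2 changes did not pass.

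**Figure D3:**
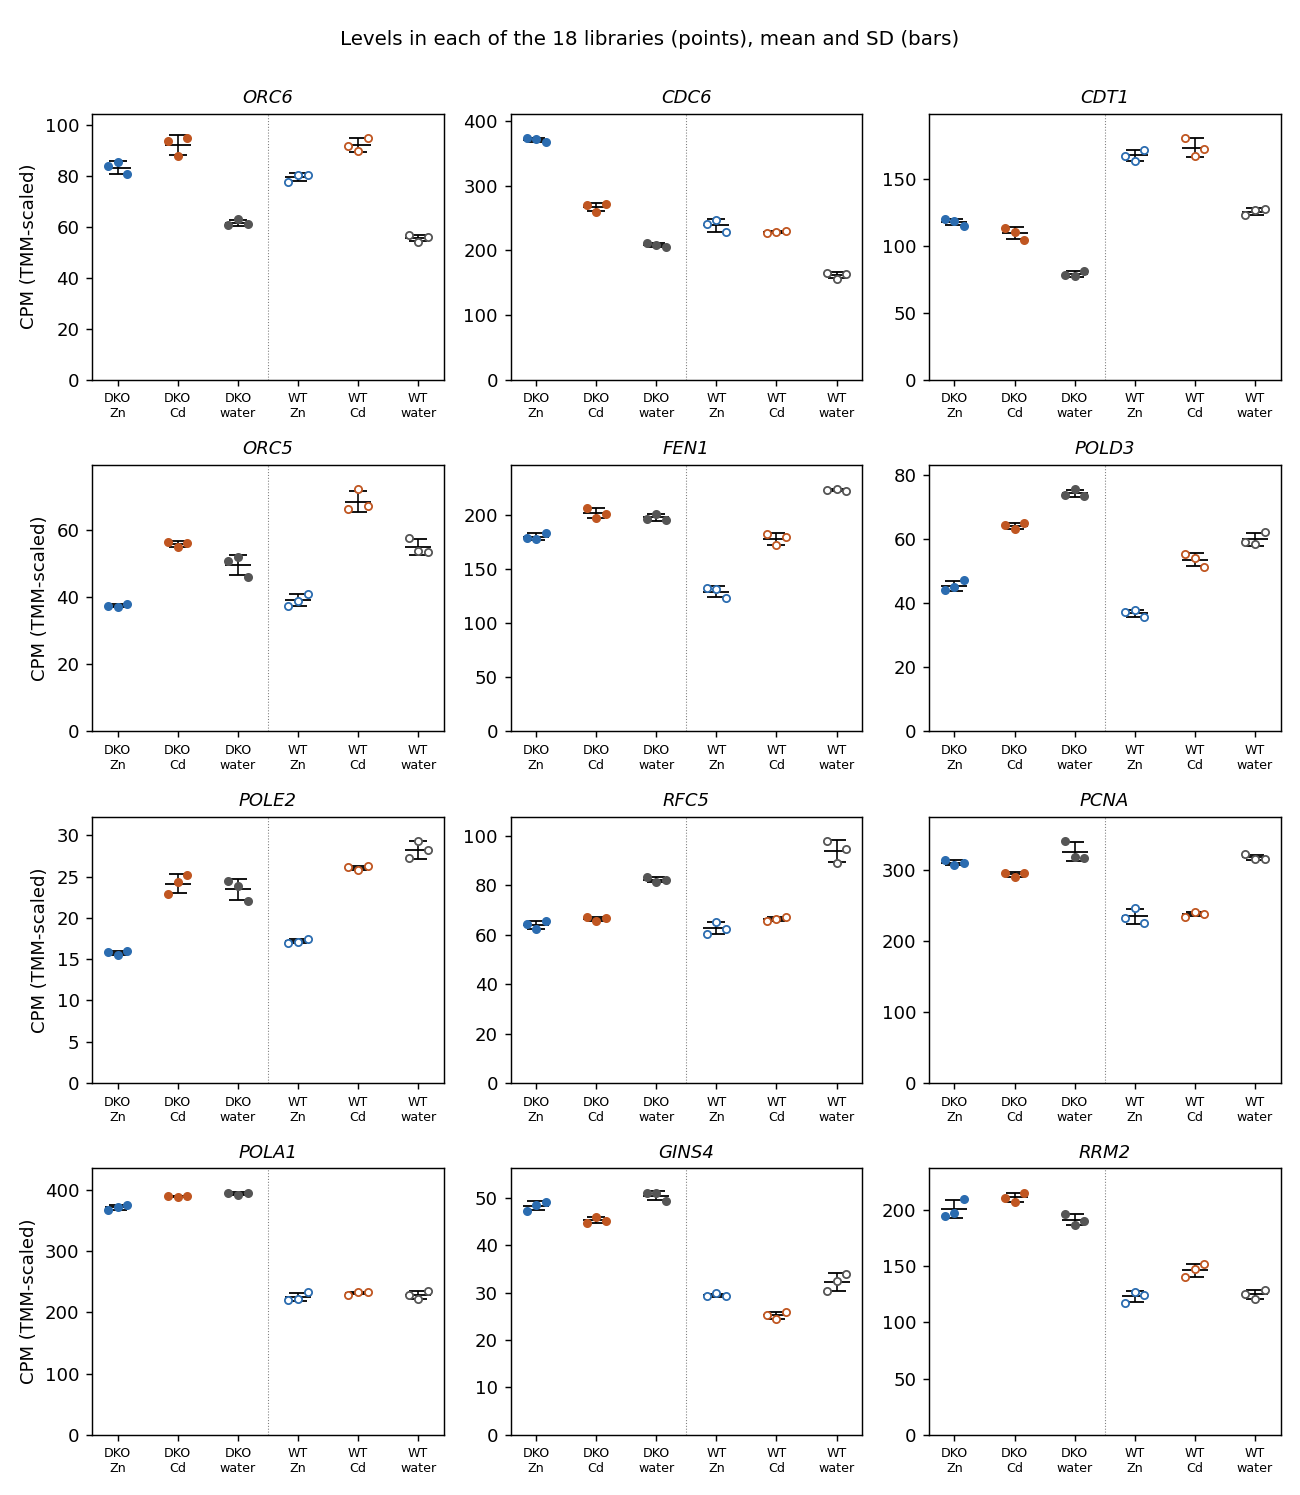
CPM of 12 of the genes in each of the 18 libraries (points, filled for DKO and open for wild type, with blue for zinc, orange for cadmium and grey for water), with the mean and SD of each group as bars and the axis from 0. ORC6, CDC6 and CDT1 are above water under both metals, ORC5 lies below water under zinc and above it under cadmium, and POLA1, GINS4 and RRM2 separate the genotypes under every treatment.

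Zinc and cadmium were also compared with each other. Cadmium against zinc gave 17 higher and 15 lower of the 48 in DKO cells, where 48.2% of all genes passed, 23.9% higher and 24.3% lower. In wild-type cells it gave 22 higher and 10 lower, where 52.3% of all genes passed, 27.3% higher and 25% lower. The wild-type counts were 19 and 16 with library size alone, and 21 and 13 without wild-type zinc replicate 3. POLE2 and POLD3 were higher under cadmium than under zinc in both genotypes, with log2 0.61 ± 0.056 and 0.50 ± 0.040 in DKO cells and 0.60 ± 0.055 and 0.54 ± 0.042 in wild-type cells (edgeR adjusted p at most 9.05e-12). POLD1 and MCM5 were lower under cadmium than under zinc, with -0.42 and -0.26 in DKO cells and -0.53 and -0.43 in wild-type cells. CDC6 was lower under cadmium than under zinc in DKO cells (-0.47 ± 0.030, edgeR adjusted p = 2.47e-16), and in wild-type cells the difference of -0.064 ± 0.030 did not pass (adjusted p = 0.0756).

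The genotypes differed before any metal. In water, 12 of the 48 were higher and 24 lower in DKO cells than in wild-type cells, where 62.9% of all genes passed, 30.8% higher and 32.1% lower. Of the 48, 19 were higher and 22 lower with library size alone. The median log2 difference of the 48 was -0.10, against -0.018 for all genes. POLA1, the catalytic subunit of polymerase alpha, had 396, 392 and 395 CPM in DKO cells and 229, 222 and 235 CPM in wild-type cells (log2 0.79 ± 0.027, edgeR adjusted p = 5.93e-25). GINS4 had 51.0, 51.1 and 49.4 CPM in DKO cells and 30.3, 32.5 and 33.9 CPM in wild-type cells (log2 0.64 ± 0.043, adjusted p = 5.79e-16). The libraries of the genotypes did not overlap for either gene. Their partners in the same complexes differed less or the other way. POLA2 differed by 0.059 ± 0.031 (adjusted p = 0.0911) and GINS1 by 0.029 ± 0.036 (edgeR adjusted p = 0.499). GINS2, with 76.1, 71.4 and 70.1 CPM in DKO cells and 63.4, 63.7 and 64.3 CPM in wild-type cells, was higher (0.18 ± 0.038, edgeR adjusted p = 5.75e-05). GINS3, with 22.6, 25.5 and 22.7 CPM in DKO cells and 29.3, 27.4 and 27.2 CPM in wild-type cells, was lower (-0.24 ± 0.054, edgeR adjusted p = 0.000166). The 3 nucleotide supply genes were all higher in DKO cells. RRM2 had 196, 187 and 190.4 CPM in DKO cells and 125, 121 and 129 CPM in wild-type cells (log2 0.61 ± 0.035, edgeR adjusted p = 5.77e-18), with TYMS at 0.40 and RRM1 at 0.19. CCNE1 was higher too, by 0.47 ± 0.051 (adjusted p = 2.9e-10).

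CDT1 and CDC6, the 2 MCM loaders, differed in opposite directions between the genotypes. CDT1 had 77.9, 77.2 and 81.4 CPM in DKO cells and 123, 126 and 127 CPM in wild-type cells in water (log2 -0.67 ± 0.036, edgeR adjusted p = 6.5e-19). CDC6 had 212, 208 and 206 CPM in DKO cells and 166, 156 and 164 CPM in wild-type cells (log2 0.37 ± 0.031, adjusted p = 3.4e-13). No DKO library overlapped a wild-type library for either. POLD2, a small subunit of polymerase delta, had 125, 132 and 127 CPM in DKO cells and 193, 203 and 200.2 CPM in wild-type cells (log2 -0.64 ± 0.035, adjusted p = 1.26e-18). POLD3 of the same enzyme was higher in DKO cells (0.31 ± 0.039, adjusted p = 7.74e-09) and POLD1 did not pass (-0.0071 ± 0.042, adjusted p = 0.897). UHRF1 had 136, 145 and 145 CPM in DKO cells and 193, 204 and 209.9 CPM in wild-type cells (log2 -0.51 ± 0.034, adjusted p = 3.05e-16). Of the MCM2-7 ring, 5 of 6 genes were lower in DKO cells, from -0.29 for MCM5 to -0.13 for MCM7, and MCM4 did not pass (-0.056 ± 0.025, adjusted p = 0.0548). Of all tested genes, 32.1% were lower and 30.8% higher in DKO cells in water.

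Under zinc 20 of the 48 were higher and 13 lower in DKO cells than in wild-type cells, with 66.7% of all genes passing, 34% higher and 32.7% lower. The counts were 19 and 12 without wild-type zinc replicate 3. Under cadmium 18 were higher and 21 lower, with 67% of all genes passing, 32.5% higher and 34.5% lower. Of the 48, 10 were higher in DKO cells under all 3 treatments, which is 50.0% of the 20 under zinc, 55.6% of the 18 under cadmium and 83.3% of the 12 in water. A further 12 were lower under all 3, which is 92.3% of the 13 under zinc, 57.1% of the 21 under cadmium and 50.0% of the 24 in water. The higher ones were CDC6, MCM8, GINS2, GINS4, POLA1, POLD3, RRM1, RRM2, TYMS and CCNE1. The lower ones were ORC2, CDT1, MCM3, MCM5, MCM10, RFC2, RFC3, RFC4, POLD2, POLE, RPA3 and UHRF1. Genes called the same way under all 3 treatments were not counted among all tested genes. Whether such persistence is particular to the replication genes was therefore not tested. FEN1 turned round: it was lower in DKO cells in water (-0.17 ± 0.030) and higher under zinc (0.48 ± 0.031) and under cadmium (0.18 ± 0.031), each with an edgeR adjusted p of at most 4.26e-06.

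The response to each metal was then compared between genotypes as an interaction. The zinc response was more positive in DKO cells for 17 of the 48 and more negative for 2, where 14.1% of all genes were more positive and 10.5% more negative (24.6% in all). The median difference of the 48 was 0.090, against 0.021 for all genes. FEN1 had the largest difference, log2 0.65 ± 0.043 (edgeR adjusted p = 1.28e-14), its change under zinc being -0.14 in DKO cells and -0.79 in wild-type cells. PCNA, UHRF1, GMNN, CDC6 and POLA2 followed, at 0.37 ± 0.043, 0.35 ± 0.047, 0.30 ± 0.053, 0.27 ± 0.043 and 0.27 ± 0.044, with an edgeR adjusted p of at most 3.33e-05. For PCNA and POLA2 this was a smaller fall in DKO cells than in wild-type cells, for GMNN a fall past the test in wild-type cells only, for CDC6 a larger rise, and for UHRF1 a rise in DKO cells with no change past the test in wild-type cells. Of the MCM2-7 ring 5 genes were among the 17, from 0.10 for MCM7 to 0.22 for MCM3. The MCM7 value did not pass without wild-type water replicate 2 (0.095, adjusted p = 0.0657), wild-type zinc replicate 1 (0.095, adjusted p = 0.0708), DKO water replicate 3 (0.089, adjusted p = 0.0903) or DKO zinc replicate 2 (0.10, adjusted p = 0.0557). RFC1 was more negative in DKO cells (-0.19 ± 0.045, edgeR adjusted p = 0.00124). Without wild-type zinc replicate 3 the FEN1 difference was 0.62 and the counts were 16 and 2. The 2 more negative genes became 1 without wild-type water replicate 3, wild-type zinc replicate 2, DKO water replicate 1 or DKO zinc replicate 2.

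For cadmium the response was more positive in DKO cells for 13 of the 48 and more negative for 7, where 14% of all genes were more positive and 14.1% more negative (28.1% in all). The counts were 10 and 11 when only the 4 groups compared were fitted, 15 and 3 with no filter on low counts, and 13 and 4 without DKO cadmium replicate 2. FEN1 (0.35 ± 0.043), UHRF1 (0.32 ± 0.048), PCNA (0.27 ± 0.043), POLD1 (0.27 ± 0.060) and MCM4 (0.26 ± 0.036) led the more positive ones, with an edgeR adjusted p of at most 0.000762. For PCNA this was a smaller fall in DKO cells than in wild-type cells, and for the other 4 a fall that passed in wild-type cells only. ORC4 led the more negative ones (-0.32 ± 0.053, edgeR adjusted p = 1.16e-05), followed by GINS3 (-0.24 ± 0.074, adjusted p = 0.0114), RFC4 (-0.17 ± 0.054, adjusted p = 0.014) and RPA2 (-0.17 ± 0.046, adjusted p = 0.00499). GINS3 did not pass without DKO water replicate 2 (-0.19, adjusted p = 0.0726), and RFC4 did not without wild-type cadmium replicate 3, DKO water replicate 1 or DKO cadmium replicate 3 (adjusted p = 0.0501 to 0.0507). For GINS3, RFC4 and RPA2 this was a smaller rise in DKO cells, and for ORC4 a rise past the test in wild-type cells only. The 2 interactions share the water libraries, so FEN1, UHRF1 and PCNA heading both is not 2 independent results. CDC6 had differences of opposite sign for the metals, 0.27 ± 0.043 for zinc and -0.14 ± 0.043 for cadmium. The cadmium one (edgeR adjusted p = 0.0134) did not pass without wild-type water replicate 2 (-0.11, adjusted p = 0.0616) or DKO cadmium replicate 2 (-0.11, adjusted p = 0.0608).

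**Figure D4:**
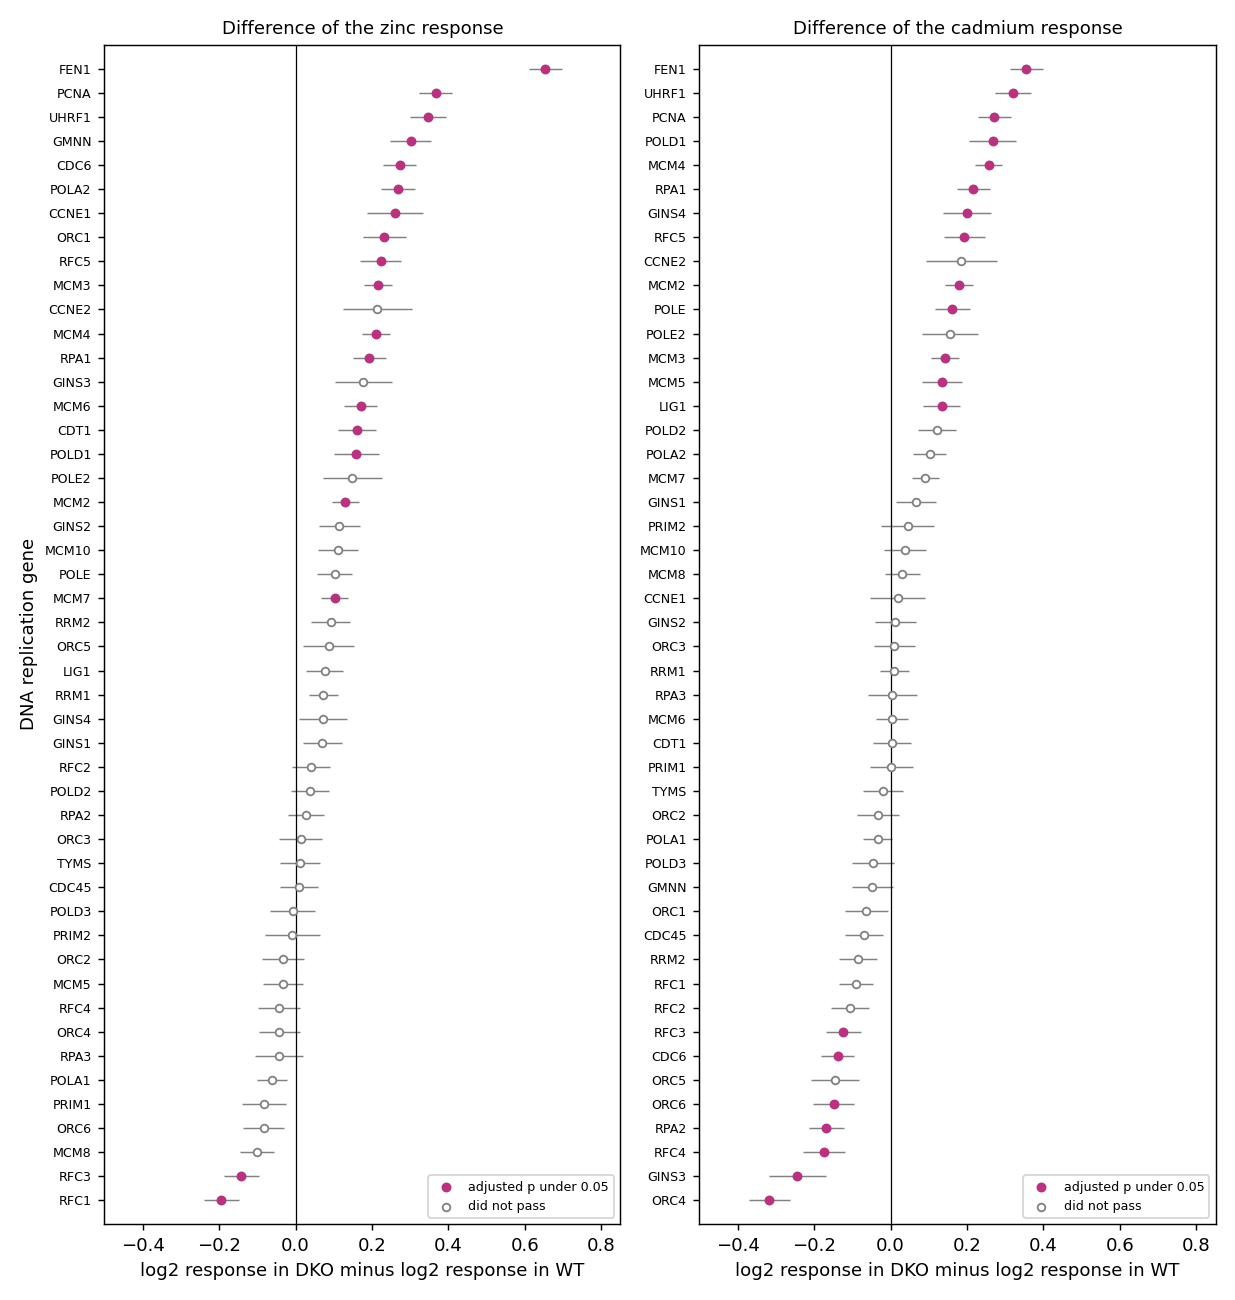
Difference of the log2 response between genotypes (DKO minus wild type) for zinc (left) and cadmium (right), 1 row per gene sorted by value, with the standard error as a bar and filled points for an adjusted p under 0.05. FEN1 lies apart at 0.65 for zinc and leads at 0.35 for cadmium, and 17 filled points lie right of 0 for zinc against 2 left of it.

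Calls of the 2 genotypes for the same metal were set side by side. Under zinc, 9 genes rose in both, which is 75.0% of the 12 in DKO cells and 90.0% of the 10 in wild-type cells. Another 16 fell in both, which is 84.2% of the 19 and 61.5% of the 26, and 0 had opposite calls. Under cadmium, 12 rose in both, which is 92.3% of the 13 in DKO cells and 80.0% of the 15 in wild-type cells. Another 14 fell in both, which is 87.5% of the 16 and 66.7% of the 21, and 0 had opposite calls. Shared calls were not counted among all tested genes, so whether the replication genes differ from them in this was not tested. CCNE2, GINS1, RFC5, POLA2, POLD3, LIG1 and TYMS stand among those that fell in both genotypes under both metals, and ORC6, CDC6, CDT1, GINS3 and RFC4 rose in all 4. Within a genotype both metals are set against the same water libraries, so these are not 4 independent results.

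The 41 genes with a promoter window were also counted by E2F motif. Under zinc in wild-type cells, 5 of the 21 with the motif rose and 12 fell (median log2 -0.14), while 4 of the 20 without it rose and 10 fell (median -0.071). Under cadmium in wild-type cells 4 of 21 rose and 11 fell with the motif (median -0.12), while 10 of 20 rose and 5 fell without it (median 0.057). In DKO cells under zinc, 6 of 21 rose and 9 fell with the motif (median -0.034), while 5 of 20 rose and 8 fell without it (median -0.041), so the order of the medians was not that of wild-type cells. In DKO cells under cadmium, 4 of 21 rose and 9 fell with the motif (median -0.060), while 7 of 20 rose and 4 fell without it (median 0.031). Among all tested genes, 28.2% rose and 27.7% fell under zinc and 23.2% and 23.8% under cadmium in DKO cells, and in wild-type cells the shares were 29.4% and 32% under zinc and 30% and 31.7% under cadmium. The difference between the motif groups was not tested.

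Other genes of the pathway were counted in lists apart from the 48, beside the shares of all tested genes that rose and fell. These shares were 28.2% and 27.7% under zinc and 23.2% and 23.8% under cadmium in DKO cells, and 29.4% and 32% under zinc and 30% and 31.7% under cadmium in wild-type cells. Of 28 other fork and origin genes, zinc raised 5 and lowered 14 in DKO cells and raised 5 and lowered 15 in wild-type cells. Cadmium raised 4 and lowered 13 in DKO cells and raised 8 and lowered 14 in wild-type cells. Their median log2 change was -0.076 under zinc and -0.084 under cadmium in DKO cells, and -0.12 and -0.11 in wild-type cells, against 0.0011 and -0.0025 for all genes in DKO cells and -0.011 and -0.014 in wild-type cells. TICRR (treslin), which helps load CDC45, rose by 0.86 under zinc and 0.76 under cadmium in DKO cells and by 0.84 and 0.53 in wild-type cells on the log2 scale. DBF4, the activating subunit of the CDC7 kinase that fires origins, fell in all 4, with -1.02 and -0.74 in DKO cells and -0.67 and -0.35 in wild-type cells. MCMBP, an MCM-binding protein, fell under zinc (-0.89 in DKO cells and -0.75 in wild-type cells). Of 7 genes that turn over CDT1 and cyclin E, zinc raised 3 and lowered 3 in DKO cells and raised 3 and lowered 4 in wild-type cells. Cadmium raised 3 and lowered 2 in DKO cells and raised 4 and lowered 2 in wild-type cells. The medians were -0.033 under zinc and 0.0065 under cadmium in DKO cells and -0.12 and 0.070 in wild-type cells. DTL, the adaptor of the ligase that marks CDT1 for destruction, rose by 0.98 under zinc and 0.63 under cadmium in DKO cells and by 0.89 and 0.74 in wild-type cells. FBXW7, of the same list, rose under zinc by 0.73 in DKO cells and 1.07 in wild-type cells. Under cadmium FBXW7 fell in DKO cells (-0.37) and did not pass in wild-type cells (-0.069).

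Of the 18 E2F, RB and DREAM genes, which control this transcription programme, zinc raised 6 and lowered 6 in DKO cells and raised 8 and lowered 5 in wild-type cells. Cadmium raised 10 and lowered 4 in DKO cells, where 23.2% of all genes rose and 23.8% fell. It raised 7 and lowered 7 in wild-type cells, where 30% of all genes rose and 31.7% fell. The medians were 0.019 under zinc and 0.10 under cadmium in DKO cells and 0.020 and 0.057 in wild-type cells, against 0.0011, -0.0025, -0.011 and -0.014 for all genes. The shares of the list that rose and fell under zinc were both 33.3% in DKO cells, where 28.2% of all genes rose and 27.7% fell, and 44.4% and 27.8% in wild-type cells, where 29.4% rose and 32% fell. E2F3, an activator, rose by 1.13 under zinc in DKO cells and 1.07 in wild-type cells, and E2F2, another activator, by 0.82 and 0.82. LIN54, the DNA-binding subunit of the DREAM and MuvB complexes, rose under cadmium by 0.86 in DKO cells and 1.44 in wild-type cells. Of 14 G1/S cyclins, kinases and inhibitors, zinc raised 6 and lowered 5 in DKO cells and raised 6 and lowered 7 in wild-type cells. Cadmium raised 5 and lowered 5 in DKO cells and raised 5 and lowered 6 in wild-type cells. The medians were 0.045 under zinc and 0.016 under cadmium in DKO cells and -0.092 and 0.020 in wild-type cells. CDKN1A (p21), which blocks cyclin-CDK2 and binds PCNA, rose by 1.88 under zinc and 1.25 under cadmium in DKO cells and by 1.69 and 1.32 in wild-type cells. In water CCND1, cyclin D1, had 168 ± 2.31 CPM in DKO cells and 10.2 ± 0.649 CPM in wild-type cells (SD, n = 3 each), a log2 difference of 4.03 ± 0.047 (edgeR adjusted p = 4.83e-40).

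Of 10 replication checkpoint genes, zinc raised 3 and lowered 7 in DKO cells, where 28.2% of all genes rose and 27.7% fell. In wild-type cells it raised 3 and lowered 4, where 29.4% of all genes rose and 32% fell. Cadmium raised 1 and lowered 4 in DKO cells, where 23.2% of all genes rose and 23.8% fell. It raised 3 and lowered 5 in wild-type cells, where 30% of all genes rose and 31.7% fell. The medians were -0.24 under zinc and -0.038 under cadmium in DKO cells and -0.039 and -0.053 in wild-type cells. WEE1, which restrains CDK1 and CDK2, rose by 0.77 under zinc and 0.95 under cadmium in DKO cells and by 1.41 and 1.86 in wild-type cells. ETAA1, an activator of ATR, fell by 1.52 under zinc in DKO cells and by 1.33 in wild-type cells on the log2 scale. Of 14 other nucleotide supply genes, zinc raised 2 and lowered 6 in DKO cells and raised 2 and lowered 8 in wild-type cells. Cadmium raised 2 and lowered 4 in DKO cells and raised 3 and lowered 10 in wild-type cells. The medians were -0.076 under zinc and -0.018 under cadmium in DKO cells and -0.14 and -0.13 in wild-type cells. CAD, which starts pyrimidine synthesis, had its largest change under cadmium in wild-type cells (-0.85 ± 0.029), with -0.34 ± 0.029 in DKO cells (edgeR adjusted p at most 1.24e-12). Of 8 chromatin replication genes, zinc raised 1 and lowered 1 in DKO cells and raised 1 and lowered 4 in wild-type cells. Cadmium raised 4 and lowered 2 in DKO cells and raised 5 and lowered 3 in wild-type cells. The medians were 0.020 under zinc and 0.064 under cadmium in DKO cells and -0.11 and 0.15 in wild-type cells. SUPT16H, a histone chaperone subunit of FACT, fell under zinc (-0.40 in DKO cells and -0.43 in wild-type cells), and in water 6 of the 8 were lower and 2, ASF1B and SSRP1, higher in DKO cells, where 32.1% of all genes were lower and 30.8% higher.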

How the data were processed

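RNA was sequenced as 18 libraries from a stranded TruSeq kit, per the labels' protocols. The deposited table holds gene counts, whole and not normalized, that the authors made after alignment to hg38 (GRCh38.p13) with STAR, as the submitters' processing notes list them. No source used here gives the STAR version, the counter or the annotation release. The first column of each of the 18 sample files equals the series table, and these counts take both strands together, so antisense and overlapping genes can move a value. No total rows entered the library sizes. Totals ran from 25478614 to 37148046 counts.

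Of 58336 genes, 19393 passed edgeR's filterByExpr (minimum count 10), all 48 replication genes among them. edgeR 4.0.16 (R 4.3.3, limma 3.58.1) fitted the 6 group means to all 18 libraries with TMM scaling, and glmQLFTest gave each contrast, with Benjamini-Hochberg adjustment over the 19393 genes and a threshold of 0.05. Standard errors are the log2 change divided by the square root of the F statistic. The median biological coefficient of variation was 3.93%. TPM used exon lengths of GENCODE 29. Tables and plots used Python 3.11.15 with pandas 2.3.3, numpy 2.4.6 and matplotlib 3.10.9. The fits were tested on simulated data first.

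Alternatives were DESeq2 1.42.0, library size alone, no filter, at least 5 CPM in 3 libraries, the strand column with most reads, the groups compared alone, the replicate number as a block, and leaving out each library. Replicate numbers were not treated as pairs: deviations of same-numbered libraries correlated by at most 0.0864, in 45 pairs. Library values are given for up to 6 genes with the largest called change per comparison and a mean of 5 CPM, and for genes going against their role's direction. Other members whose library values are given (ORC5, for example) were chosen after their values were seen. The members, lists and rules were chosen with earlier results of these data known.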

Additional observations from a re-analysis of the deposited data

Results flagged for a closer look

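The response to a metal differed between DKO and wild-type cells for 19 of the 48 genes under zinc and 20 under cadmium. The test was the interaction test of edgeR with an adjusted p under 0.05, and passing it marked these genes for a closer look. Of all tested genes, 24.6% passed the same test under zinc and 28.1% under cadmium. The values below are log2 responses in DKO cells minus those in wild-type cells.

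Among licensing and helicase genes, the zinc difference was 0.23 for ORC1, 0.27 for CDC6, 0.16 for CDT1, 0.30 for GMNN, 0.13 for MCM2, 0.22 for MCM3, 0.21 for MCM4, 0.17 for MCM6 and 0.10 for MCM7. At the fork, the zinc difference was 0.37 for PCNA, 0.22 for RFC5, 0.27 for POLA2, 0.16 for POLD1, 0.19 for RPA1, 0.65 for FEN1 and 0.35 for UHRF1, and it was 0.26 for CCNE1. RFC1 and RFC3 were the genes with a negative zinc difference, at -0.19 and -0.14.

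The cadmium difference was -0.32 for ORC4, -0.15 for ORC6, -0.14 for CDC6, 0.18 for MCM2, 0.14 for MCM3, 0.26 for MCM4, 0.13 for MCM5, -0.24 for GINS3 and 0.20 for GINS4. At the fork, the cadmium difference was 0.27 for PCNA, -0.12 for RFC3, -0.17 for RFC4, 0.19 for RFC5, 0.27 for POLD1, 0.16 for POLE, 0.22 for RPA1, -0.17 for RPA2, 0.35 for FEN1, 0.13 for LIG1 and 0.32 for UHRF1.

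Some of these calls were lost when a library was left out. For zinc, MCM7 was lost in 4 of 12 such fits (adjusted p = 0.0557 to 0.0903), RFC3 in 4 (0.0583 to 0.0964) and POLD1 in 7 (0.0592 to 0.159). For cadmium, LIG1 was lost in 9 of 12 (0.0528 to 0.113), MCM5 in 8 (0.0503 to 0.149), RFC3 in 6 (0.0766 to 0.155), ORC6 in 5 (0.0519 to 0.137), RFC4 in 3 (0.0501 to 0.0507), CDC6 in 2 (0.0608 to 0.0616), and GINS3 without DKO water replicate 2 (0.0726) and GINS4 without wild-type water replicate 3 (0.0706).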

How the results depend on the processing

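The total numbers of the 48 genes that passed, both directions together, stayed within 1.5 times the reported ones under every alternative, but the numbers by direction did not. With library size alone, 7 rose and 31 fell under cadmium in DKO cells (13 and 16 as reported), 10 and 32 under zinc in DKO cells (12 and 19) and 12 and 33 under cadmium in wild-type cells (15 and 21). For DKO against wild type in water it gave 19 higher and 22 lower (12 and 24), and for cadmium against zinc in wild-type cells 19 and 16 (22 and 10). Under zinc in DKO cells the filter of 5 CPM gave 16 and 15. Leaving out each library in turn gave 28 to 31 under zinc and 26 to 29 under cadmium in DKO cells, and 34 to 38 and 34 to 36 in wild-type cells. For DKO against wild type it gave 33 to 37 in water, 29 to 32 under zinc and 36 to 38 under cadmium, for cadmium against zinc 28 to 32 in DKO cells and 30 to 34 in wild-type cells, and for the differences of response 16 to 21 under either metal. Of 207 calls in the 7 main comparisons, 178 were kept in every fit that left out a library and 40 were lost in at least 1 alternative of any kind.

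Scaling by library size alone drops the TMM factors, which shifts all genes of a comparison by about the same amount. Those factors were 1.02 to 1.03 in wild-type water libraries and 0.941 to 0.947 in wild-type cadmium libraries. Which scaling is closer to the RNA amounts in the cells was not tested. The sign of several small changes turned with library size alone. Under cadmium in wild-type cells the values became -0.10 for ORC2, -0.085 for MCM5, -0.032 for CDC45, -0.10 for POLA1, -0.0056 for PRIM1 and -0.095 for RRM1. Under cadmium in DKO cells they became -0.094 for MCM10, -0.095 for CDC45, -0.0046 for RPA2, -0.086 for FEN1 and -0.078 for RRM1, and GINS2 under zinc in DKO cells became -0.090.

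The replicate number as a block, in a design whose labels do not say that numbers pair the samples, lost 0 of the 207 calls. With the block 31 genes passed under zinc and 32 under cadmium in DKO cells, 36 and 36 in wild-type cells, 37 for DKO against wild type in water, 20 for the zinc difference and 22 for the cadmium difference.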
